A study of Mus musculus with 9 samples.

Results

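The genes described here were the plasminogen activators Plau and Plat, the urokinase receptor Plaur and the activator inhibitor Serpinb2, which were 4 of the 55471 genes in a count table of 9 RNA-seq libraries from bone marrow-derived dendritic cells (DCs). They were chosen by gene symbol as one functional group, because the level of Plau differed strongly between LPS-activated and IFN-β-treated cells. The values of Plau in those libraries are therefore given as a description without a test, as is the difference between the 2 stimuli for every member. All 4 members passed the filter on low counts, which kept 16260 genes for the tests.

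Bone marrow of WT C57BL/6 mice was cultured with 20 ng/mL GM-CSF, a growth factor that drives precursors toward DCs, macrophages and granulocytes, and the study used female mice aged 8 to 20 weeks. Cells were left unstimulated, given 100 ng/mL LPS, a component of the outer membrane of bacteria, or given 1000 U/mL IFN-β, an antiviral cytokine, each for 6 h. Each condition had 3 libraries with the letters A, B and C. The labels do not say whether the letters stand for separate mice or cultures, so the p-values measure the spread between these libraries, which may be technical.

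Urokinase (uPA, encoded by Plau) and tissue-type plasminogen activator (tPA, encoded by Plat) are serine proteases that cleave the zymogen plasminogen into plasmin, which dissolves fibrin and helps to break down extracellular matrix. The receptor uPAR, encoded by Plaur, is a lipid-anchored surface protein that holds uPA at the cell membrane, and inhibitors of the serpin family, such as PAI-2 (Serpinb2), block both activators. Myeloid cells are a known source of uPA, uPAR and PAI-2, which bear on proteolysis around migrating cells. RNA levels alone were measured here, not protein or proteolytic activity.

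In LPS-activated DCs, Plau was 5.62-fold lower than in unstimulated DCs by the group means, while Plat was 34.5-fold and Serpinb2 20.9-fold higher, and Plaur was 1.13-fold higher. All 3 members tested against unstimulated cells passed with LPS, as did 68.2% of all tested genes, although the direction of the small difference of Plaur depended on the scaling. In IFN-β-treated DCs, Plat was 2.60-fold and Plaur 1.28-fold higher by the means and both passed, where 46.9% of all tested genes did, but Plaur did not pass with library size alone (adjusted p by edgeR = 0.530). Serpinb2 was 1.34-fold higher with IFN-β and did not pass (adjusted p by edgeR = 0.204), but passed with the library letter as a replicate block (adjusted p = 0.0384). Plau, which was not tested, was 1.17-fold higher with IFN-β, a direction that turned with library size alone. Per kb of exon, Plau exceeded Serpinb2 in every unstimulated and IFN-β library, and Serpinb2 exceeded Plau in every LPS library. In bulk samples such as these, fewer cells of a type and less RNA per cell cannot be told apart.

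Promoter sequences were taken from RefSeq on GRCm38.p6, in which 2 of the 4 members, Plaur and Serpinb2, were matched. They are shown because only these members had an entry. With LPS, Plaur had a small and Serpinb2 a large difference, and a link to the motifs was not tested. Each line covers 250 bases before and 20 bases from the annotated start site on the plus strand, 5′ to 3′, at chr7:24462233-24462502 for Plaur and chr1:107511173-107511442 for Serpinb2. Capitals mark matches to the searched motifs.

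Plaur: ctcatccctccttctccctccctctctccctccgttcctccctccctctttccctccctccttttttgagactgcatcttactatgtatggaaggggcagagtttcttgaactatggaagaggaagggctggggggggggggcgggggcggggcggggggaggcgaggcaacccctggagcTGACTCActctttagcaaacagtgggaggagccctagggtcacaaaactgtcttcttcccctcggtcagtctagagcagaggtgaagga

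Serpinb2: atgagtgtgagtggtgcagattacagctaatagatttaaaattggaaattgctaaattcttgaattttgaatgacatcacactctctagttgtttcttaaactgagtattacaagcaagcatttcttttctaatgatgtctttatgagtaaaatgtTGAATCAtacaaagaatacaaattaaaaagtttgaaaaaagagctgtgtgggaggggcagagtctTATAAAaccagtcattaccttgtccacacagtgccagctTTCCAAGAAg

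Both strands of the windows from 250 bases before to 50 bases after the start were searched for the NF-kB consensus, AP-1 (TGANTCA), the core of the interferon-stimulated response element (GAAANNGAA), the STAT site GAS (TTCNNNGAA) and the cAMP response element CRE (TGACGTCA). A TATA box (TATAAA) was added after the sequences had been seen. Plaur held an AP-1 match at 69 to 63 bases before the start site, and Serpinb2 held one at 94 to 88 bases before it. Serpinb2 also held TATAAA at 29 to 24 bases before the start and a GAS match at 10 to 18 bases after it. AP-1 and GAS read nearly the same on both strands, so each match was found on both, and none overlapped another motif. The other motifs had no match in either window, which says only that these letters were not there. Of the 32851 promoter windows in the table, 7.81% held AP-1, 8.30% GAS, 13.6% TATAAA, 8.46% the NF-kB consensus, 8.56% the interferon element and 1.79% CRE. The GC content was 59.3% for Plaur and 35.3% for Serpinb2, where the middle range between the quartiles of all windows was 45.7% to 61.7%. A further Serpinb2 entry starting 87 bases downstream held the same 3 matches.

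The libraries held 33425803 to 43735199 counts, so that 3 counts, taken as the lower limit of detection, corresponded to 0.0674 to 0.106 CPM, counts scaled to a common library total. CPM values were scaled with TMM factors, which adjust each library for the makeup of its RNA and ranged from 0.783 in an LPS library to 1.26 in an unstimulated one. The DC markers Itgax, Cd74 and H2-Ab1 were abundant in every group. The sum over 6 DC markers was 4218 to 5046 CPM without stimulation, 5718 to 6399 CPM with LPS and 4693 to 4959 CPM with IFN-β. In that order, the other DC markers had means of 32.5, 53.9 and 34.9 CPM for Zbtb46 and 3.06, 3.49 and 2.65 CPM for Flt3. Cd209a was very low, with means of 0.2, 0.0102 and 0.0446 CPM, and at or under the limit in every LPS library. Macrophage markers were present too: 7 of 7 were above the limit, and their sum was 854 to 1323, 2096 to 2821 and 1641 to 2016 CPM in the same order. The single markers did not move together. With LPS, the mean of Cd14 went from 75.8 to 700 CPM and that of Fcgr1 from 97.3 to 446 CPM, and Adgre1 and Mertk were higher too. C1qa, C1qb and C1qc went from 141, 284 and 168 to 88.4, 263 and 134 CPM. With IFN-β, Fcgr1 was at 567 CPM, and Cd14 alone was lower, at 62.9 CPM. The 5 endothelial markers summed to 74.6 to 96.0, 168 to 174 and 229 to 242 CPM in that order. Of these, Kdr had means of 9.76, 122 and 136 CPM and Vwf had means of 72.4, 43.0 and 92.6 CPM. Cdh5 had means of 1.21, 3.10 and 3.04 CPM and Pecam1 of 2.52, 3.69 and 3.16 CPM, while Tek had at most 1 count in a library. Neutrophil markers summed to at most 23.4 CPM in any library, stromal ones to at most 8.32, mast cell or basophil ones to at most 0.277 and lymphocyte ones to at most 0.283. The part of these cells in the results was not tested.

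Plau encodes uPA and lies at chr14:20836660-20843385 on the plus strand of GRCm38. Unstimulated libraries A, B and C held 191, 181 and 169 CPM of Plau. The LPS libraries held 32.9, 30.2 and 33.1 CPM. The IFN-β libraries held 234, 203 and 199 CPM. The LPS values were far below all others and did not overlap with them, while the lowest IFN-β value lay just above the highest unstimulated value. In raw counts, the LPS libraries held 931, 1037 and 1077 against 7482 to 8064 in unstimulated libraries, so that counting error was small against this difference. The IFN-β libraries held 9983, 7635 and 7197 raw counts, which overlapped with the unstimulated ones. The direction of the IFN-β difference depended on the scaling, with a log2 value of -0.073 with library size alone.

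The fitted log2 difference of Plau was -2.49 ± 0.09 (SE, n = 3 per group) for LPS against unstimulated, 0.23 ± 0.08 for IFN-β against unstimulated, and 2.72 ± 0.09 for IFN-β against LPS. Within the letters A, B and C, the LPS difference was -2.53, -2.58 and -2.35, and the IFN-β difference was 0.29, 0.16 and 0.24. No p is given because the gene was chosen on these libraries. Per kb of exon, Plau was at 76.2 ± 4.66 CPM (SD, n = 3) without stimulation, where it ranked 401st of 16229 genes, at 13.6 ± 0.685 CPM with LPS, where it ranked 3134th, and at 89.5 ± 8.11 CPM with IFN-β, where it ranked 478th.

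Plat encodes tPA, best known from vessel walls and the nervous system, and lies at chr8:22757727-22782844 on the plus strand. Unstimulated libraries A, B and C held 23, 24 and 16 counts of Plat, or 0.583, 0.539 and 0.361 CPM. The LPS libraries held 497, 602 and 520 counts, or 17.6, 17.5 and 16.0 CPM. The IFN-β libraries held 48, 59 and 42 counts, or 1.12, 1.57 and 1.16 CPM. Each group was separate from the others, with LPS highest and unstimulated lowest, and the unstimulated level was above the limit of detection in every library. Plat rose by 5.10 ± 0.18 on the log2 scale with LPS (edgeR quasi-likelihood test, Benjamini-Hochberg adjusted p = 5.05e-09) and by 1.38 ± 0.20 with IFN-β (adjusted p = 3.28e-04). The difference of IFN-β against LPS was -3.73 ± 0.16, given without a test.

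Despite this rise, Plat remained the lowest of the members per kb of exon in every library. Its level was 0.0792 ± 0.0188 CPM per kb (SD, n = 3) in unstimulated, 2.73 ± 0.147 in LPS and 0.206 ± 0.0394 in IFN-β libraries. As a share of the 2 activators per kb, Plat was 0.103% ± 0.0192 (SD, n = 3) in unstimulated libraries, 16.8% ± 1.28 in LPS libraries and 0.232% ± 0.0559 in IFN-β libraries. The LPS libraries ranged from 15.5% to 18.0%, and no other library was above 0.292%.

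Plaur encodes the receptor that holds uPA at the cell surface and lies at chr7:24462484-24475968 on the plus strand. Unstimulated libraries A, B and C held 541, 521 and 514 CPM of Plaur. The LPS libraries held 612, 610 and 565 CPM. The IFN-β libraries held 640, 670 and 710 CPM. The groups did not overlap, with IFN-β highest and unstimulated lowest, although the highest unstimulated and lowest LPS values lay close together. Plaur rose by 0.36 ± 0.07 on the log2 scale with IFN-β (edgeR quasi-likelihood test, Benjamini-Hochberg adjusted p = 0.0022) and by 0.18 ± 0.07 with LPS (adjusted p = 0.0447). With library size alone in place of TMM factors, the LPS value turned to -0.40 ± 0.07 (adjusted p = 2.17e-04) and the IFN-β value fell to 0.052 ± 0.068 (adjusted p = 0.530), so the direction under LPS depended on the scaling. The LPS call was also lost without unstimulated library A, B or C, LPS library A or B, or IFN-β library B, with log2 values of 0.16 to 0.20 and adjusted p of 0.0579 to 0.133. The difference of IFN-β against LPS was 0.18 ± 0.07, given without a test.

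Per kb, Plaur was the most abundant member in every library, at 201 ± 5.49 CPM (SD, n = 3) in unstimulated, 228 ± 10.1 in LPS and 257 ± 13.4 in IFN-β libraries. These levels placed it 124th, 222nd and 134th of 16229 genes in the same order.

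Serpinb2 encodes PAI-2, a serpin that inhibits uPA and tPA and is largely kept inside the cell, and lies at chr1:107511423-107535478 on the plus strand. Unstimulated libraries A, B and C held 12.5, 19.1 and 23.3 CPM of Serpinb2. The LPS libraries held 382, 394 and 371 CPM. The IFN-β libraries held 15.6, 24.9 and 33.2 CPM. The LPS values were far above the rest and close to each other, whereas unstimulated and IFN-β values overlapped and were both lowest in library A and highest in library C. The coefficient of variation was 29.7% without stimulation and 35.8% with IFN-β, against 3.05% with LPS.

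Serpinb2 rose by 4.38 ± 0.28 on the log2 scale with LPS (edgeR quasi-likelihood test, Benjamini-Hochberg adjusted p = 2.22e-07). With IFN-β the value was 0.42 ± 0.26 and did not pass (adjusted p = 0.204). Library by library with the same letter, the IFN-β difference was 0.32, 0.39 and 0.51, which varied less than the levels did. With the letter as a replicate block, the IFN-β value was 0.41 ± 0.16 and passed (adjusted p = 0.0384), and it also passed without IFN-β library A, at 0.66 ± 0.21 (adjusted p = 0.0324). The difference of IFN-β against LPS was -3.96 ± 0.28, given without a test. Serpinb2 shares 291 exonic bases with Serpinb10, annotated as a polymorphic pseudogene on the same strand, which held at most 25 counts in any library.

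**Figure D1:**
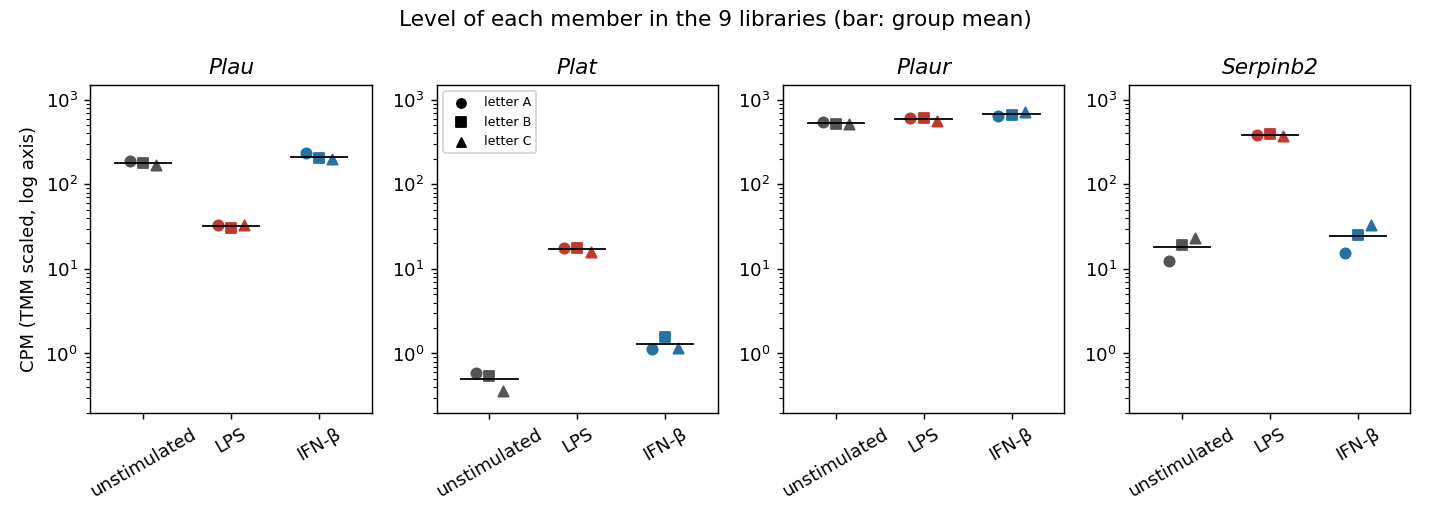
Level of Plau, Plat, Plaur and Serpinb2 in each of the 9 libraries, in CPM scaled with TMM factors on a log axis, with the groups on the x axis, a marker shape for each letter and a bar at the group mean (n = 3). Plau sits at 30.2 to 33.1 CPM with LPS and at 169 CPM or more elsewhere, Plat and Serpinb2 are highest with LPS, and Plaur lies between 514 and 710 CPM throughout.

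The place of the members among all genes differed by stimulus. The LPS differences of Plat and Serpinb2 ranked 163rd and 245th from the top of 16260 genes, and that of Plaur ranked 6474th. With IFN-β, the values of Plat, Plaur and Serpinb2 ranked 908th, 4050th and 3625th from the top. Between IFN-β and LPS, 49.1% of all genes passed. The members entered no test there, and the differences of Plau, Plat and Serpinb2 stood 142nd from the top, 110th from the bottom and 87th from the bottom.

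The scaling bore on the small values. With library size alone, the median log2 difference of all genes moved by -0.58 with LPS, by -0.31 with IFN-β and by 0.28 between IFN-β and LPS, and the share of calls that were higher moved from 48.1% to 21.9%, from 50.3% to 22.3% and from 52.5% to 77.9%. Under that scaling Plau turned from 0.23 to -0.073 with IFN-β and Plaur from 0.18 to -0.40 with LPS, while the other member values kept their direction. Plat and Serpinb2 kept their LPS calls under every alternative run.

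**Figure D2:**
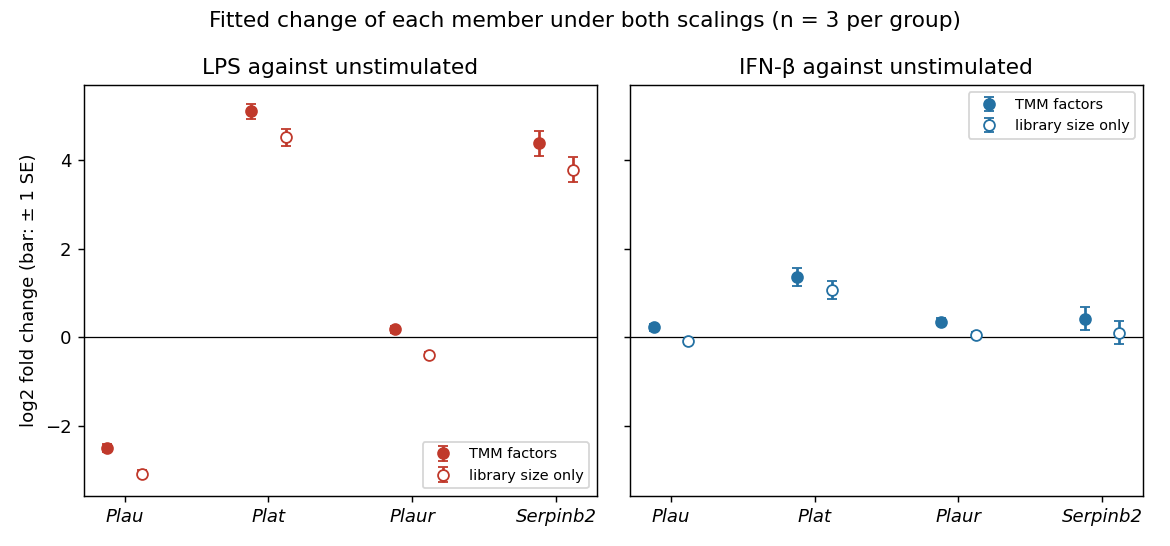
Fitted log2 fold change of each member against unstimulated cells (y axis) with LPS (left) and IFN-β (right), with TMM factors (filled) or library size alone (open), and bars of ± 1 SE (n = 3 per group). Plau, Plat and Serpinb2 under LPS lie far from 0 with both scalings, while Plaur under LPS moves from 0.18 to -0.40 and Plau under IFN-β from 0.23 to -0.073.

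Ratios between members within a library do not depend on that scaling. Per kb of exon, the ratio of Plau to Serpinb2 was 7.19 to 15.1 in unstimulated libraries and 5.94 to 14.9 in IFN-β libraries. In LPS libraries the order was turned, with Serpinb2 exceeding Plau by 11.3-fold to 13.1-fold. On the log2 scale the mean ratio was 3.33 ± 0.54 (SD, n = 3), 3.16 ± 0.67 and -3.59 ± 0.12 for unstimulated, IFN-β and LPS libraries, so LPS libraries stood 121-fold from the unstimulated ones and IFN-β libraries overlapped with them.

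The ratio of Plau to its receptor Plaur followed the same order. Plaur exceeded Plau by 2.57-fold to 2.75-fold without stimulation, by 2.48-fold to 3.23-fold with IFN-β and by 15.4-fold to 18.3-fold with LPS. The ratio of Plau to Plat was 863 to 1233 without stimulation, 341 to 548 with IFN-β and 4.54 to 5.46 with LPS, with no overlap between any of the groups. Plau therefore remained the more abundant activator in every library. Plaur exceeded Serpinb2 by 19.8-fold to 38.8-fold without stimulation and 19.2-fold to 36.8-fold with IFN-β, but by 1.37-fold to 1.44-fold with LPS.

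**Figure D3:**
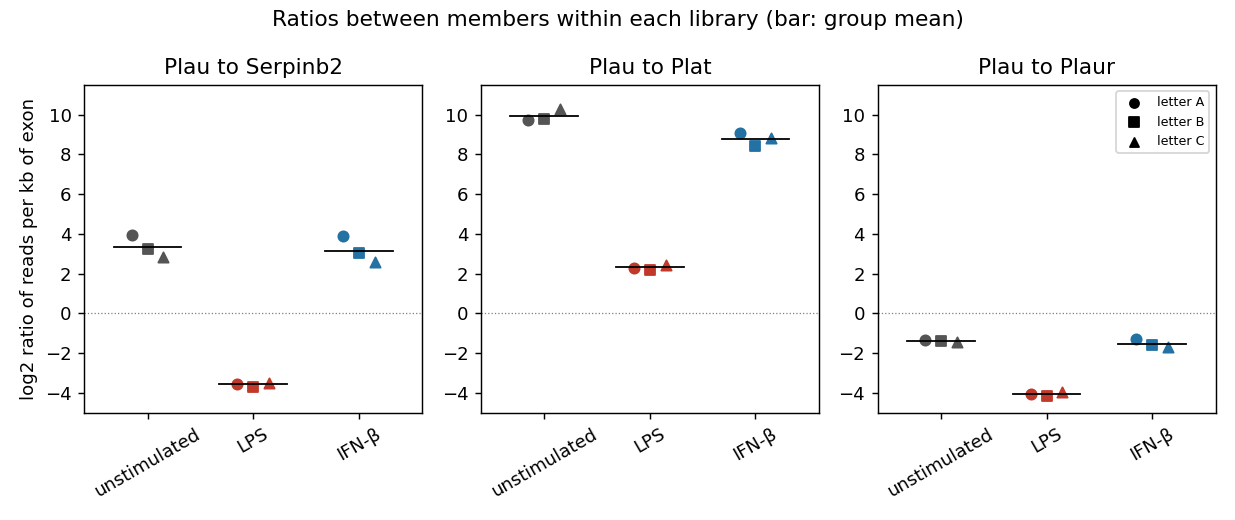
Log2 ratio of Plau to Serpinb2, Plat and Plaur within each library, from reads per kb of exon (y axis), by group, with a marker shape for each letter and a bar at the group mean (n = 3). The Plau to Serpinb2 ratio lies above 0 in the unstimulated and IFN-β libraries and between -3.72 and -3.50 in the LPS libraries.

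The wider plasminogen system was described with a list of 38 genes that holds the members, of which 6 had no count in any library and 27 passed the filter on low counts. Among the 6 were Plg, the gene of plasminogen itself, the vitronectin gene Vtn, the inhibitor Serpina5 and the fibrinogen genes Fga, Fgb and Fgg. Plasminogen and fibrinogen are known to be made mainly in the liver. Without Plau, 16 of 26 tested genes passed with LPS (11 higher, 5 lower), which is 61.5% against 68.2% of all genes, and their median log2 value was 0.19 against -0.04 for all genes. With IFN-β, 9 of 26 passed and all of them were higher, which is 34.6% against 46.9%, with a median of 0.24 against -0.02. With the replicate block the IFN-β count was 20 (14 higher, 6 lower), where 9151 of all 16260 genes passed. With library size alone the counts were 21 for LPS (8 higher, 13 lower) and 11 for IFN-β (7 higher, 4 lower). Of all genes, 12683 and 9630 passed in that order. Without the 4 members, 9 of 23 passed between IFN-β and LPS (4 higher, 5 lower), or 39.1% against 49.1%. There 15 passed with the replicate block (9 higher, 6 lower) and 13 with library size alone (9 higher, 4 lower). Of all genes, 9425 and 9020 passed in that order.

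Among the activators, Klkb1, the gene of plasma kallikrein, which can activate pro-uPA and plasminogen, was low throughout but rose from 0.195 ± 0.0340 CPM (SD, n = 3) to 1.25 ± 0.364 CPM with LPS and to 0.496 ± 0.218 CPM with IFN-β. Its log2 changes were 2.66 ± 0.38 and 1.35 ± 0.41 (edgeR quasi-likelihood test, Benjamini-Hochberg adjusted p = 8.46e-05 and 0.0195). The IFN-β call was lost without unstimulated library C or IFN-β library A (adjusted p = 0.0655 and 0.104). Klkb1 held 7 to 10 counts in the unstimulated libraries, so the size of its changes is uncertain. It met the filter on low counts only through the stimulated libraries, where it was higher, so the filter favoured these calls. F11 and F12 were too low to be tested.

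Serpinb2 was not the only inhibitor of the activators that rose. Serpini1, the gene of neuroserpin, an inhibitor of tPA, rose by 1.46 ± 0.38 with LPS and 1.45 ± 0.38 with IFN-β on the log2 scale from a mean of 0.404 CPM (edgeR quasi-likelihood test, Benjamini-Hochberg adjusted p = 0.00565 and 0.00895). Serpine2, the gene of protease nexin-1, which inhibits uPA and thrombin, rose by 1.18 ± 0.17 with LPS (adjusted p = 1.04e-04) and stood at 0.37 ± 0.17 with IFN-β without passing (adjusted p = 0.109). Serpinf2, the gene of the plasmin inhibitor α2-antiplasmin, was at 0.249 to 0.251 CPM in the group means and did not pass in either comparison.

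Of the 7 tested receptors and cofactors, 5 passed with LPS (3 higher, 2 lower; 1 higher and 6 lower with library size alone) and 3 with IFN-β (all higher; 1 higher and 2 lower with library size alone). These are 71.4% and 42.9% of the group, near the 68.2% and 46.9% over all genes. The replicate block gave 6 with IFN-β (5 higher, 1 lower), where 9151 of all 16260 genes passed. With library size alone, 12683 of all genes passed with LPS and 9630 with IFN-β. Plgrkt, the gene of a transmembrane plasminogen receptor, rose by 0.80 ± 0.07 on the log2 scale with LPS and 0.50 ± 0.07 with IFN-β (edgeR quasi-likelihood test, Benjamini-Hochberg adjusted p = 1.27e-06 and 1.49e-04). S100a10, whose product pairs with annexin A2 to bind plasminogen and tPA, fell by 0.26 ± 0.07 with LPS and rose by 0.38 ± 0.07 with IFN-β (adjusted p = 0.00586 and 0.00121), where the IFN-β value was 0.08 with library size alone (adjusted p = 0.311). Its partner Anxa2 rose by 0.35 ± 0.08 with LPS (adjusted p = 0.00215), a direction that turned to -0.23 with library size alone. Eno1, a glycolytic enzyme that also binds plasminogen at the surface, fell by 0.64 ± 0.08 with LPS (adjusted p = 2.57e-05). Lrp1, the endocytic receptor that clears complexes of activator and inhibitor, fell by 0.57 ± 0.15 with LPS (adjusted p by edgeR = 0.00626). It alone of 4 tested clearance receptors and partners passed there. The replicate block gave 2 and library size alone gave 3, all lower. Of all genes, 11950 and 12683 passed in that order.

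Of the 5 tested genes of fibrin formation and its control, 3 passed with LPS (2 higher, 1 lower, or 1 and 2 with library size alone) and 2 with IFN-β (both higher), where the replicate block gave 5 (3 higher, 2 lower). These are 60.0% and 40.0% of the group, against 68.2% and 46.9% over all genes. Of all 16260 genes, 12683 passed with LPS with library size alone, and 9151 with IFN-β with the replicate block. F10, the gene of coagulation factor X, rose by 1.70 ± 0.11 on the log2 scale with LPS and 0.56 ± 0.11 with IFN-β (edgeR quasi-likelihood test, Benjamini-Hochberg adjusted p = 2.44e-07 and 0.00174). F3, the gene of tissue factor, which starts coagulation, rose by 0.50 ± 0.18 with LPS, where it was at -0.08 with library size alone, and by 0.68 ± 0.18 with IFN-β (adjusted p = 0.0267 and 0.00934). Its LPS call was lost without unstimulated library B or C or LPS library A or B (adjusted p of 0.0512 to 0.117). Thbd, the gene of thrombomodulin, a cofactor in the anticoagulant protein C pathway, went from 5.09, 3.44 and 1.92 CPM in unstimulated libraries A, B and C to 0.283, 0.233 and 0.215 CPM in the LPS libraries. It fell by 3.82 ± 0.52 on the log2 scale (adjusted p = 6.34e-05), and all LPS values were below all unstimulated ones. The LPS libraries held 7 to 8 counts of Thbd, so the size of this fall is uncertain. The last group held 3 growth factors activated by these proteases. Mst1 fell with LPS (-0.79 ± 0.30, adjusted p by edgeR = 0.0349), and the others did not pass. The Mst1 call was lost without unstimulated library B or LPS library B or C (adjusted p of 0.0938 to 0.129). All 3 passed with the replicate block (2 higher, 1 lower), as did 11950 of all 16260 genes.

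**Figure D4:**
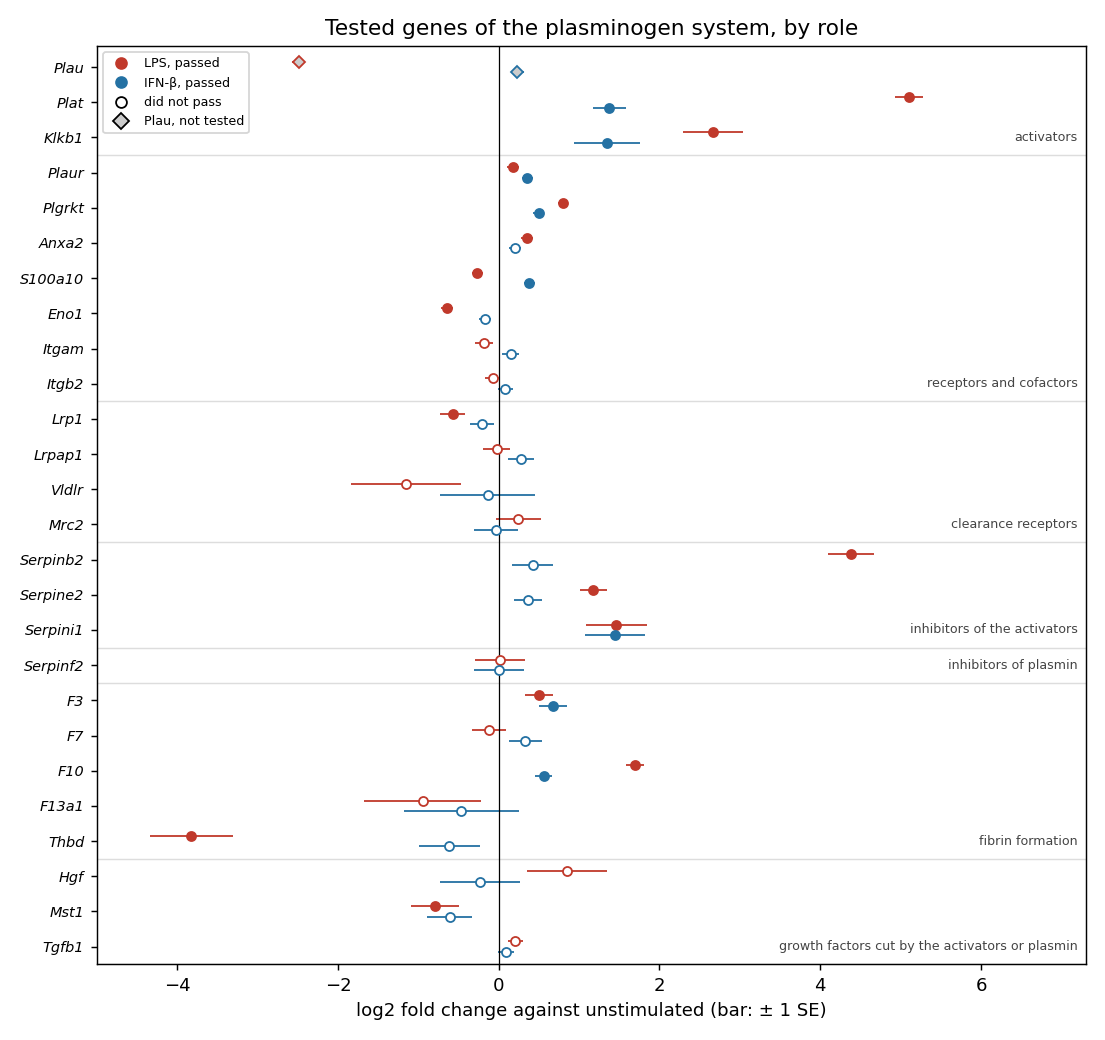
Log2 fold change against unstimulated cells (x axis) with LPS (red) and IFN-β (blue) for 26 of the 27 tested genes of the plasminogen system, ordered by role, with bars of ± 1 SE (n = 3 per group), filled circles for genes that passed the test, open circles for those that did not, and diamonds for Plau, which was not tested. Plat and Serpinb2 lie at 5.10 and 4.38 with LPS, and Thbd lies at -3.82. With library size alone, Plaur, Anxa2 and F3 turn negative with LPS and Plau with IFN-β.

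Serpinb2 belongs to the clade B serpins, intracellular inhibitors of proteases, of which 27 mouse genes were listed and 17 were too low to be tested. Of the 10 that could be tested, 7 rose and 3 fell with LPS, where 68.2% of all genes passed, and 2 rose and 2 fell with IFN-β, where 46.9% did. Their median log2 values were 1.33 and 0.25. With the replicate block, 5 rose and 4 fell with IFN-β, where 9151 of all 16260 genes passed. With library size alone the LPS counts were 5 and 4, and those with IFN-β were 1 and 5. Of all genes, 12683 passed there with LPS and 9630 with IFN-β. Serpinb2 had the largest LPS difference among them, followed by Serpinb9, an inhibitor of granzyme B, which rose by 3.18 ± 0.14 on the log2 scale with LPS and 1.44 ± 0.13 with IFN-β (edgeR quasi-likelihood test, Benjamini-Hochberg adjusted p = 1.60e-08 and 1.22e-05). In CPM, Serpinb9 went from 37.6 to 51.0 in unstimulated libraries to 376 to 429 with LPS and 108 to 142 with IFN-β. Serpinb10 is among the falls counted in both comparisons, but on 10 to 25 counts in unstimulated libraries and 0 to 4 in the others. At this depth its fold is not given. It met the filter on low counts only through the unstimulated libraries, where it was highest. The filter therefore favoured these calls, and no p is given for them. Serpinb12 fell by 2.36 ± 0.25 with LPS and by 0.79 ± 0.21 with IFN-β (adjusted p = 9.59e-06 and 0.0116). Several of these serpins are close paralogs whose reads the counting could split, so values of single genes in the Serpinb1, Serpinb6 and Serpinb9 groups are uncertain.

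The protein-coding neighbours of the members were compared as well. Of all 16260 tested genes, 68.2% passed with LPS (5334 higher, 5750 lower) and 46.9% with IFN-β. Whether neighbours and members share a cause was not tested. With library size alone, the log2 values of all genes moved by a median of -0.58 with LPS and -0.31 with IFN-β. Neighbour values smaller than this may therefore depend on the scaling. Beside Plau, which was lower with LPS, Camk2g fell by 1.38 ± 0.12 on the log2 scale, Vcl and Ndst2 rose by 0.70 ± 0.09 and 0.39 ± 0.07, and Ap3m1 stood at -0.03 ± 0.06 (edgeR quasi-likelihood test, Benjamini-Hochberg adjusted p = 1.84e-06, 4.33e-05, 3.67e-04 and 0.636). Beside Plat, all 4 neighbours rose with LPS, each less than Plat (adjusted p by edgeR at most 8.29e-07). The rises were 1.83 ± 0.07 for Ap3m2, whose gene lies 4.51 kb away, 1.18 ± 0.05 for Ikbkb, 1.10 ± 0.08 for Polb and 0.89 ± 0.07 for Kat6a. With IFN-β, Ap3m2, Kat6a and Polb rose by 1.04 ± 0.07, 0.63 ± 0.07 and 0.61 ± 0.08 (adjusted p by edgeR at most 1.01e-04). Ikbkb stood at 0.05 ± 0.05 there (adjusted p by edgeR = 0.515). Beside Serpinb2, Serpinb8 fell by 1.22 ± 0.07 with LPS (adjusted p = 6.28e-08), and Serpinb11, Serpinb7 and Cdh7 held at most 3 counts in a library. Beside Plaur, Smg9 rose by 0.39 ± 0.07 and Cadm4 fell by 0.87 ± 0.29 with LPS (adjusted p = 6.21e-04 and 0.0213), and Irgc1 and Zfp428 did not pass with LPS (adjusted p = 0.0951 and 0.107). With IFN-β, where Plaur passed too, Irgc1 rose by 0.69 ± 0.16, Smg9 rose by 0.24 ± 0.07 and Zfp428 fell by 1.02 ± 0.34 (adjusted p = 0.005, 0.0209 and 0.0322). Cadm4 stood at 0.041 ± 0.26 with IFN-β (adjusted p by edgeR = 0.911). Cadm4 and Zfp428 held at most 26 and 42 counts in a library, so the size of their changes is uncertain.

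The genes whose pattern over the 9 libraries was most like that of a member were found by Pearson's r of log2(CPM + 0.5), as a description without a p, since the libraries share their groups and letters. For Plau these were Lair1 (r = 0.999), Psen2, Oxct1, Rassf8 and Tgfbr2, which all had their lowest mean with LPS. Lair1, the gene of an inhibitory collagen receptor, had group means of 56.5, 9.36 and 62.8 CPM for unstimulated, LPS and IFN-β. For Plat they were Ptgs2, the gene of cyclooxygenase-2, Mab21l3 and Gm6093. For Serpinb2 they were Cxcl3 and Il1b, which encode an inflammatory chemokine and cytokine, and Ift57. For Plaur they were the pseudogene Gm12263, Ndst2 and Fam20c. An r of 0.95 or more was shared by 529 genes with Plau, 1002 with Plat and 729 with Serpinb2, but by 25 with Plaur. Among the members, r was -0.98 between Plau and Serpinb2, -0.96 between Plau and Plat, 0.97 between Plat and Serpinb2, and between 0.06 and 0.20 for Plaur with each of the others.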

How the data were processed

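Paired-end 100 bp reads of libraries depleted of ribosomal RNA were trimmed with Trim Galore 0.6.0 and mapped to GRCm38 with STAR 2.7.8a, as the submitters' processing notes give them, and counted per gene on a GENCODE annotation by the authors. The deposited values are these raw counts for each gene, neither normalized nor filtered nor pooled. The strand setting of the counting is not given in the sources used here, so reads of overlapping genes on opposite strands may not be told apart. The table held 55471 genes, 25539 of them without a count, and 9 libraries, whose groups came from the labels. No row was left out other than by the filter on low counts. A gene of the plasminogen list entered the fit and the list counts but is not reported here.

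Genes were kept with edgeR's filterByExpr, which left 16260. TMM factors, a negative binomial model with 1 term per condition over all 9 libraries and quasi-likelihood F-tests were run in edgeR 4.0.16 (R 4.3.3), with Benjamini-Hochberg adjustment over all tested genes and a threshold of 0.05 on the adjusted p. Fold changes are log2 with their SE, all tests were two-sided, and counting error is the limit at low depth. Levels between genes were compared per kb of exon from GENCODE M21, in which 55144 identifiers were found. Correlations used log2(CPM + 0.5). Counts of 15943 genes were simulated from mean levels over all 9 libraries, with the same spread for every gene and no letter effect. Changes of 0.5, 1 and 2 on the log2 scale were put into the LPS group for 66, 66 and 64 genes. Of these, 21.2%, 80.3% and 100% were recovered, and 4.38% of calls were among unchanged genes. Far more genes passed in the real data and their spread differs by gene, so these rates do not carry over to the real fit. With 3 libraries against 3, an exact permutation test of a single value cannot go below 0.1 and was not used.

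The members, gene lists and tests were chosen with earlier results of these data known. Named genes were the 4 members, up to 12 genes of the plasminogen list past the threshold given in full, the 3 clade B serpins with the largest passing difference in each stimulus, the nearest 2 protein-coding genes on each side of each member, and the 5 (Plau) or 3 (other members) genes with the highest r. The letters of the libraries were taken to pair the samples in the replicate block, because the deviations from the group means correlated in all 9 same-letter pairs (r of 0.134 to 0.546). The 18 pairs with different letters had r of -0.48 to 0.0622. Deviations within a group sum to 0, so negative values there follow from the same-letter ones and are no separate contrast. The main fit held no letter term, since the paper's methods name none, and so it ignores this pairing. Calls that differ between the 2 fits are therefore uncertain. Alternatives were library size alone, upper-quartile factors, DESeq2 1.42.0, other count filters, stricter thresholds, the 2 compared groups alone, the letter as a replicate block and leaving out each library. No 2 libraries agreed within sampling noise, with a chi-square per degree of freedom of at least 12.9 within groups.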

Additional observations from a re-analysis of the deposited data

How the results depend on the processing

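When a log2 fold change of 1 or more in size was also required, the counts of all genes fell to 5429 for LPS, 2052 for IFN-β and 2834 between IFN-β and LPS, and those of the plasminogen list to 8, 4 and 4. The replicate block gave 20 list genes for IFN-β and 15 between IFN-β and LPS, where 9151 and 9425 of all genes passed. It gave 0.41 for Serpinb2 with IFN-β, past the threshold. It changed no other call of a tested member, and counts of groups within the lists that it moved by more than 1.5 times stand beside those counts. Library size alone gave, in log2, -3.07 for Plau and -0.40 for Plaur with LPS, -0.073 for Plau and 0.052 for Plaur with IFN-β, and 2.998 for Plau, 0.45 for Plaur and -3.45 for Plat between IFN-β and LPS, which turned the direction of Plaur with LPS and of Plau with IFN-β. Upper-quartile factors gave -2.58 for Plau and 0.088 for Plaur with LPS. Plaur with LPS did not pass there (adjusted p by edgeR = 0.275), without a filter on low counts (0.16, adjusted p = 0.169), with at least 10 counts in every library (0.17, adjusted p = 0.0579) or with the 2 compared groups alone (0.17, adjusted p = 0.0747). Serpinb2 with IFN-β passed without a filter (0.42, adjusted p = 0.0234).

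Leaving out each library in turn gave 0.16 to 0.22 for Plaur with LPS, past the threshold in 3 of 9 fits. It gave 0.15 to 0.66 for Serpinb2 with IFN-β, past the threshold without IFN-β library A, and -3.89 to -3.64 for Plat between IFN-β and LPS. The counts over all genes were 10455 to 11234 for LPS, 6467 to 7742 for IFN-β and 6858 to 8049 between them. The changes of Plat and Serpinb2 with LPS, and of Plat with IFN-β, kept direction and side of the threshold under every alternative run, leaving out libraries included. The cause of the other changes was not tested. Depth limits values that rest on few counts in a group. Among these are Plat, Klkb1 and Serpini1 without stimulation, on 16 to 24, 7 to 10 and 12 to 23 counts. Thbd, Serpinb12 and Mst1 with LPS rest on 7 to 8, 14 to 22 and 15 to 22 counts, and Serpinb10 is limited as well.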

Other observations

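F13a1 and Hgf, both in the plasminogen list, varied more between letters than between conditions. F13a1, the gene of the coagulation factor XIII A chain that crosslinks fibrin, was at 141, 54.1 and 31.1 CPM in unstimulated libraries A, B and C, at 76.5, 28.1 and 12.9 CPM in LPS libraries and at 98.5, 44.6 and 20.2 CPM in IFN-β libraries. Its LPS value was -0.95 ± 0.73 in log2 without the replicate block (edgeR, adjusted p = 0.268) and -1.01 with it (adjusted p = 3.51e-08). Hgf, the gene of hepatocyte growth factor, whose precursor uPA can cleave, was at 38.1, 19.8 and 11.3 CPM in unstimulated libraries, 58.6, 41.2 and 24.7 CPM in LPS libraries and 31.99, 17.2 and 9.34 CPM in IFN-β libraries. Its LPS value was 0.85 ± 0.49 without the block (edgeR, adjusted p = 0.15) and 0.93 with it (adjusted p = 5.19e-07). In each condition both genes were highest in library A and lowest in library C, the opposite order to that of Serpinb2 in unstimulated and IFN-β libraries. These genes were named after their values had been seen.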
